A study of Mus musculus with 18 samples.

Results

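The core glycolysis enzymes described here are 10 genes, *Hk2*, *Gpi1*, *Pfkm*, *Pfkl*, *Aldoa*, *Gapdh*, *Pgk1*, *Eno1*, *Pkm* and *Ldha*, taken by name from the 21899 genes listed for the series. They fill 11 entries of that list, because a second gene, ENSMUSG00000114515, is also listed as *Aldoa*. It lies just upstream of *Aldoa* (ENSMUSG00000030695) on the same strand and is called the *Aldoa* upstream gene below. The genes were selected on the FPKM values of these libraries, with the lower *Gapdh* in the fat of salt-fed mice already known, so the diet comparison in fat is given as a description with no test.

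RNA was measured in liver, epididymal white adipose tissue (eWAT) and muscle of male wild type C57BL/6 mice at 18 weeks of age. The HSD group had 8% NaCl in the diet and 0.9% saline to drink for 12 weeks, and the CON group had chow and tap water. There were 18 libraries from 8 mice, 3 for each diet in each tissue, and the libraries of a mouse carry its number (CON16L, CON16W and CON16M are liver, eWAT and muscle of CON16). The values are FPKM, fragments scaled to the length of a gene and to the depth of the library. They are shares of a library, so comparisons between libraries of unlike make-up, above all between tissues, also depend on the scaling. All were whole tissues, in which fewer cells of a type and less RNA per cell cannot be told apart.

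The libraries held 7628071 to 16637489 fragments. The tissue markers were in place, with a summed level of 10 adipocyte markers of 7515 to 24339 FPKM in eWAT and at most 359 FPKM elsewhere, of 10 hepatocyte markers of at least 14047 FPKM in liver, and of 10 skeletal muscle markers of at least 60831 FPKM in muscle. Several libraries stood apart. The liver library CON16L held 4752 FPKM of the skeletal muscle markers against 2.2 to 6.7 FPKM in the other 5 liver libraries, with *Acta1* at 1994 FPKM, *Ckm* at 239 FPKM and *Mb* at 400 FPKM. It also held 5626 FPKM of 5 blood cell markers, against 237 to 842 FPKM in the other livers. The CON libraries CON16W of eWAT and CON16M of muscle held 5667 and 965 FPKM of the same markers, against at most 744 FPKM in the other eWAT and 224 FPKM in the other muscle libraries, and the part of blood cells in the results was not tested. Liver results are therefore given with and without CON16L. Mitochondrially encoded genes took 15.4% to 60.8% of the fragments in liver and 3.52% to 16.5% in the other tissues. In eWAT, HS3W held 17751 FPKM of 10 epididymal epithelium markers, against 1.1 to 10.2 FPKM in the other 5 libraries. HS2W, HS3W and HS5W held 621, 308 and 40.2 FPKM of 10 male germ cell markers, against 0.5 to 52.1 FPKM in CON. The 10 hepatocyte markers summed to 105 to 307 FPKM in CON eWAT and to 6.0 to 15.7 FPKM in HSD eWAT. The study used 15 of the libraries, all except CON16L, HS5L and HS5W.

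Glycolysis splits glucose into pyruvate in the cytosol and yields ATP and NADH without oxygen. Hexokinase traps glucose as glucose 6-phosphate, glucose-6-phosphate isomerase turns it into fructose 6-phosphate, and phosphofructokinase makes the committed step, after which aldolase cuts the sugar into triose phosphates. GAPDH, phosphoglycerate kinase, phosphoglycerate mutase, enolase and pyruvate kinase then carry the trioses to pyruvate, and lactate dehydrogenase exchanges pyruvate and lactate. Most steps have isoforms of their own in liver, in muscle and in other tissues. In adipocytes the pathway supplies glycerol 3-phosphate and acetyl-CoA for fat, and in fast muscle it feeds contraction. *Gapdh* is also widely used as the reference to which other genes are scaled in qPCR.

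The study used *Gapdh* as the internal control of its qPCR. The primers are shown because each qPCR value of the series is a ratio to the product they make, and both lie in coding sequence. On build GRCm38 *Gapdh* spans chr6:125161715-125166467 on the minus strand. The forward primer crosses a splice junction, with its 5′ part at chr6:125165271-125165286 in exon 2 and its 3′ end at chr6:125163432-125163436 in exon 3 of the transcript Gapdh-201. The reverse primer lies in exon 3 at chr6:125163330-125163352, and the spliced product has 123 bases. The primers, 5′ to 3′, are
forward primer: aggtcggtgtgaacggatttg
reverse primer: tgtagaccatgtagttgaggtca
Of the 13 *Gapdh* transcripts in GENCODE M21, 5 hold both primers without a mismatch. The transcripts of 43 other genes hold both as well. *Gapdh* has many processed copies: 58.4% of the stretches of 50 bases in its coding transcripts also occur in another annotated gene, and 213 of the 223 genes that share such a stretch with it are pseudogenes. How the authors counted reads that match several places is not given in the sources used here. The share was 68.0% for *Pgk1*, 49.5% for *Eno1*, mostly with its near copy *Eno1b*, 24.4% for *Gpi1*, 23.7% for *Pkm*, 10.4% for *Ldha*, 8.83% for *Pfkm*, 8.46% for *Aldoa*, 0.0532% for *Pfkl* and 0 for *Hk2*. The levels of the genes with a large share are therefore less certain than those of *Hk2* and *Pfkl*.

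In eWAT, 7 of the 10 enzymes were lower in every HSD library than in every CON library, namely *Pfkl*, *Aldoa*, *Gapdh*, *Pgk1*, *Eno1*, *Pkm* and *Ldha*. *Pfkm* was higher in every HSD library, and *Hk2* and *Gpi1* overlapped between the diets. Of all 13740 genes, 12.4% lay below CON in every HSD library and 16.2% above it (28.6% either way). The enzymes that were lower sit in the lower part of the pathway, from aldolase to lactate dehydrogenase, apart from *Pfkl*. The median log2 difference, HSD minus CON on the log2(FPKM + 0.5) scale, was −0.40 over the 10 enzymes and 0.08 over all genes. In this comparison limma called 0.0% of all genes at an adjusted p under 0.05 and a log2 difference of at least 1, while 16.7% had an unadjusted p under 0.05. Since the enzymes were chosen with this comparison known, nothing is read from these counts.

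*Gapdh*, which oxidises glyceraldehyde 3-phosphate and makes the NADH of the pathway, stood at 24.8, 24.2 and 25.9 FPKM in CON eWAT (1641, 1518 and 1779 fragments). In HSD eWAT it stood at 13.2, 12.5 and 16.4 FPKM (742, 636 and 886 fragments). The lowest CON library was above the highest HSD library, and the mean was 43.8% lower in HSD (24.96 ± 0.836 FPKM against 14.02 ± 2.07 FPKM, SD, n = 3). The log2 difference was −0.82 with a standard error (SE) of 0.12. HS5W, which the study did not use and which held the fewest germ cell transcripts of the HSD group, gave the highest of the HSD values.

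*Ldha*, the lactate dehydrogenase subunit that favours lactate formation, showed the largest difference of the 10. It stood at 222, 253 and 268 FPKM in CON and at 125, 77.9 and 142 FPKM in HSD, with a log2 difference of −1.14 (SE 0.25). *Eno1*, which turns 2-phosphoglycerate into phosphoenolpyruvate, stood at 111, 109 and 113 FPKM in CON and at 60.3, 52.7 and 61.3 FPKM in HSD. The groups lay far apart, the mean was 47.8% lower in HSD, and the log2 difference was −0.93 (SE 0.10).

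*Aldoa*, which cuts fructose 1,6-bisphosphate into trioses, was the most abundant of the 10 in eWAT. It stood at 331, 353 and 350 FPKM in CON and at 230, 161 and 289 FPKM in HSD, and the HSD libraries spread much more widely than the CON libraries. *Pkm*, the pyruvate kinase of tissues other than liver, stood at 64.7, 66.5 and 68.8 FPKM in CON and at 43.9, 51.4 and 46.3 FPKM in HSD (29.2% lower). *Pgk1*, which makes the first ATP of the pathway, stood at 61.3, 56.9 and 59.5 FPKM in CON and at 45.4, 48.2 and 51.2 FPKM in HSD (18.6% lower). All 3 were lower in each HSD library, by less than *Ldha*.

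In the upper pathway, 2 enzymes overlapped between the diets. *Hk2*, the insulin-regulated hexokinase of fat and muscle, stood at 23.4 to 29.5 FPKM in CON and at 25.8 to 29.7 FPKM in HSD. *Gpi1*, the isomerase that follows it, stood at 43.0 to 46.0 FPKM in CON and at 45.4 to 47.8 FPKM in HSD. The phosphofructokinase genes went opposite ways. *Pfkl*, the liver-type subunit, stood at 16.2, 17.2 and 16.4 FPKM in CON and at 14.4, 15.3 and 14.4 FPKM in HSD, while *Pfkm*, the muscle-type subunit, stood at 9.50, 10.5 and 9.68 FPKM in CON and at 12.5, 13.8 and 12.2 FPKM in HSD. The sum of *Pfkm*, *Pfkl* and *Pfkp* was 32.7 to 35.7 FPKM in CON and 32.7 to 34.5 FPKM in HSD, which overlapped. Of the 3 shares of this sum, that of *Pfkm* was separate between the diets, and those of *Pfkl* and *Pfkp* overlapped.

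**Figure D1:**
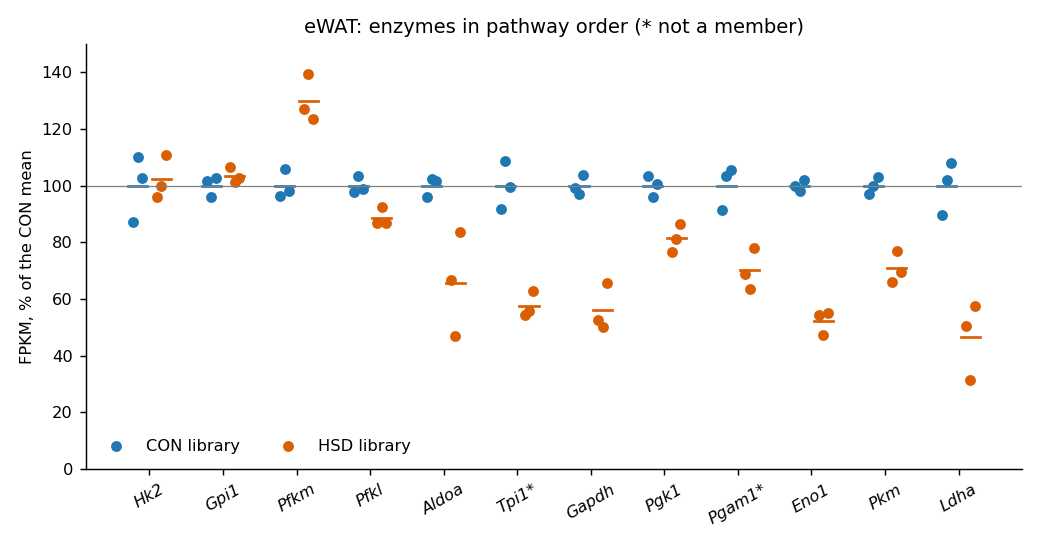
FPKM of each eWAT library as a percentage of the CON mean of that gene, in pathway order, with CON libraries in blue, HSD libraries in orange and short lines at the group means. From *Aldoa* to *Ldha* every HSD point lies below every CON point, *Hk2* and *Gpi1* overlap, and *Pfkm* lies above.

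These differences can be set beside the cell type markers in the same libraries. The germ cell markers were at 621 FPKM in HS2W, 308 FPKM in HS3W and 40.2 FPKM in HS5W, with 52.1 FPKM in the highest CON library. In HS5W, *Gapdh*, *Eno1* and *Ldha* were at 16.4, 61.3 and 142 FPKM, below every CON library. Without HS3W, the log2 difference was −0.74 for *Gapdh*, −0.87 for *Eno1*, −0.89 for *Ldha*, −0.56 for *Pkm* and −0.42 for *Aldoa*, which moved by more than 1.5 times from −0.64. In that fit 1.21% of all genes were called. The summed adipocyte markers were 17673 to 18836 FPKM in CON, 23069 FPKM in HS2W and 24339 FPKM in HS5W, against 7515 FPKM in HS3W. *Cfd*, the adipsin gene, made up most of that sum, with 9353 to 10714 FPKM in CON, 14394 FPKM in HS2W and 15478 FPKM in HS5W. Of the 10 adipocyte markers, 3 lay below and 0 above CON in every HSD library, against 12.4% and 16.2% of all genes. The median log2 difference of the 10 was −0.54. *Lep*, the leptin gene, was at 304 to 525 FPKM in CON and at 230, 80.1 and 213 FPKM in HSD. The 5 blood cell markers summed to 5667 FPKM in CON16W, to 243 and 744 FPKM in the other CON libraries and to 318 to 548 FPKM in HSD. The 8 macrophage markers summed to 268 to 379 FPKM in CON and to 128 to 269 FPKM in HSD, and the 6 fibroblast markers to 502 to 695 FPKM and 233 to 502 FPKM. The part of these cell types, and of the lower hepatocyte markers, in the enzyme values was not tested.

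Of 20 other genes of glycolytic enzymes, 18 had a mean of at least 0.5 FPKM in eWAT, and 3 lay above (*Gapdhs*, *Pgam2* and *Eno3*) and 3 below CON in every HSD library, against 16.2% and 12.4% of all genes. The 3 below, of which *Pgam1* and *Eno1b* were named after their values were seen, were *Tpi1*, the triose phosphate isomerase, at 127 to 151 FPKM in CON and 75.2 to 87.3 FPKM in HSD, *Pgam1*, the mutase of most tissues, at 65.9 to 76.1 FPKM in CON and 46.0 to 56.5 FPKM in HSD, and *Eno1b*, which shares sequence with *Eno1*, with a log2 difference of −0.65 (SE 0.23). The sum of *Pgam1* and *Pgam2* was 68.5 to 78.4 FPKM in CON and 57.8 to 72.0 FPKM in HSD, which overlapped. Low log2 differences among the 18 were those of *Tpi1* (−0.79) and *Hk3* (−0.77), of which *Hk3* overlapped between the diets. The highest were those of *Ldhc* (2.91), *Pgk2* (2.25) and *Pgam2* (2.05), the first pair of which code for sperm isoforms and the last for the muscle mutase.

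*Ldhc* was at 39.7 and 15.5 FPKM in HS2W and HS3W, at 1.84 FPKM in HS5W and at 0 to 5.14 FPKM in CON. *Pgk2* was at 10.5 and 6.95 FPKM in HS2W and HS3W and at or below 1.34 FPKM in the other 4. *Gapdhs*, the sperm form of GAPDH, was at 14.6, 9.60 and 4.75 FPKM in HSD against 1.98 to 4.47 FPKM in CON. These are high in the same libraries as the germ cell markers. *Gapdhs* made up 7.39% to 15.6% of the summed FPKM of both GAPDH genes in CON and 22.5% to 52.5% in HSD.

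Of 17 genes for regulators of glycolysis and for the handling of pyruvate and lactate, 4 lay above and 4 below CON in every HSD eWAT library, against the same 16.2% and 12.4% of all genes. The lowest log2 differences were those of *Pdhb*, a subunit of pyruvate dehydrogenase (−0.73, SE 0.26), and *Mpc2*, a subunit of the mitochondrial pyruvate carrier (−0.70, SE 0.11). *Pdhb* overlapped between the diets, at 49.6 to 77.7 FPKM in CON and 28.5 to 50.8 FPKM in HSD. The highest were those of *Pdk2*, a kinase that inhibits pyruvate dehydrogenase (0.74, SE 0.16), and *Pfkfb2*, which sets the level of fructose 2,6-bisphosphate (0.70, SE 0.29). *Mpc2* averaged 17.9 FPKM in CON and 10.8 FPKM in HSD, and *Pdk2* averaged 30.1 and 50.2 FPKM.

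*Gapdh* was compared with 14 other genes that are used as references. In eWAT, its coefficient of variation over the 6 libraries of both diets was 31.6%, the highest of the 15. *Rplp0* with 24.6% and *Gusb* with 22.9% followed, and *Ppia*, with 7.4%, and *Hprt*, with 7.9%, varied the least. The rank of *Gapdh* in eWAT restates the diet difference with which it was chosen, so nothing is read from it. In CON eWAT alone its SD was 0.836 FPKM on a mean of 24.96 FPKM. In muscle the order was turned: *Gapdh* had the lowest value, 6.6%. In liver it had 32.4%, the 8th from the top of 15. Of the 14, 4 lay below and 1 above CON in every HSD eWAT library, against 12.4% and 16.2% of all genes. Among those below were *Actb* and *Gusb*, with log2 differences of −0.25 and −0.55, and the 1 above was *Tbp* (0.22). The 9 that overlapped between the diets were between −0.36 for *Tubb5* and 0.27 for *Rplp0*.

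**Figure D2:**
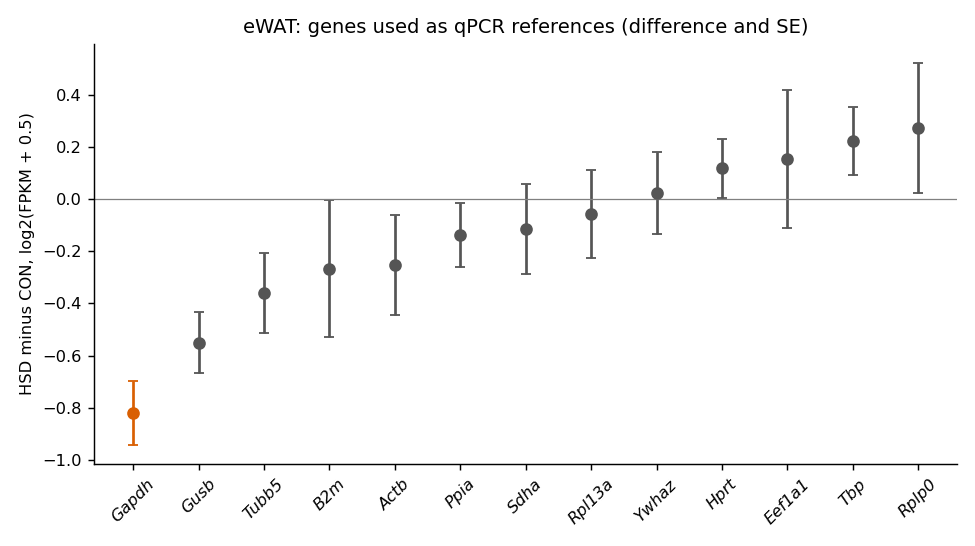
HSD minus CON difference of log2(FPKM + 0.5) in eWAT for *Gapdh* (orange) and 12 of the 14 other genes used as qPCR references (grey), with bars of 1 SE from the fit and 3 libraries per diet. *Gapdh* has the lowest value, −0.82, and *Gusb* follows at −0.55.

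Scaling to *Gapdh* rather than to other genes moved the eWAT values of the genes that the study measured by qPCR. The geometric mean of the 14 references itself differed by −0.14 on the log2 scale (SE 0.041) between HSD and CON, and *Gapdh* relative to it by −0.71 (SE 0.14). *Fasn*, the fatty acid synthase, had a log2 difference in FPKM, with no pseudocount, of −3.15 (SE 0.44). It was −3.01 relative to the 14 references, −2.89 relative to *Actb* and −2.30 relative to *Gapdh*. *Scd1*, the stearoyl-CoA desaturase, had −1.26 in FPKM, −1.12 relative to the 14 references and −0.42 (SE 0.30) relative to *Gapdh*.

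*Acaca*, the acetyl-CoA carboxylase, had −1.80 in FPKM and −0.96 relative to *Gapdh*. *Thrsp*, a lipogenic regulator, had −1.76 in FPKM, with all HSD libraries below CON, and −0.92 (SE 0.62) relative to *Gapdh*, where the diets overlapped. That ratio was 14.5 in CON16W and 14.7 and 16.9 in HS2W and HS5W. All 4 genes kept their direction under each of these denominators, and each difference was smaller when *Gapdh* was the denominator. In muscle, *Gapdh* in FPKM differed by −0.0040 (SE 0.085) on the log2 scale, and *Fasn* had −1.04 both in FPKM and relative to *Gapdh*, and −0.70 relative to *Actb*.

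**Figure D3:**
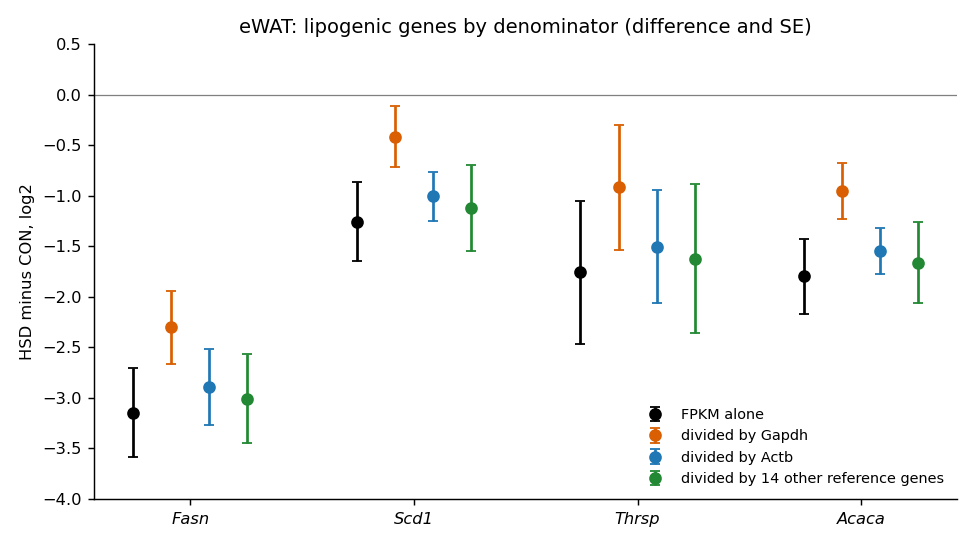
HSD minus CON difference in eWAT of mean log2 FPKM, or of the mean log2 ratio to *Gapdh*, to *Actb* or to the geometric mean of 14 other reference genes, with bars of 1 SE of the difference and 3 libraries per diet. Each orange point, relative to *Gapdh*, lies nearest to 0, as for *Scd1* at −0.42 against −1.26 in FPKM.

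The promoters of the 3 members with the largest difference in eWAT, *Ldha*, *Eno1* and *Gapdh*, are shown, since these 3 were lower together in that tissue. They are the 250 bases before the RefSeq start on GRCm38.p6, read along the gene, and capitals mark ACGTG or its reverse complement CACGT, the core letters of a hypoxia response element, which overlap the E-box CACGTG. *Ldha* is shown from chr7:46845554-46845803 (plus strand), *Eno1* from chr4:150236458-150236707 (plus strand) and *Gapdh* from chr6:125165774-125166023 (minus strand). The windows, 5′ to 3′, are
Ldha promoter: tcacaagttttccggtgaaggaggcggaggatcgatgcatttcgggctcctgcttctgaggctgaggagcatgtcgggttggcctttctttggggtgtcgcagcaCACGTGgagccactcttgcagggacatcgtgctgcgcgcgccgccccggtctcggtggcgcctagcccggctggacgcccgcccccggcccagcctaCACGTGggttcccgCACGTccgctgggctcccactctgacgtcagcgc
Eno1 promoter: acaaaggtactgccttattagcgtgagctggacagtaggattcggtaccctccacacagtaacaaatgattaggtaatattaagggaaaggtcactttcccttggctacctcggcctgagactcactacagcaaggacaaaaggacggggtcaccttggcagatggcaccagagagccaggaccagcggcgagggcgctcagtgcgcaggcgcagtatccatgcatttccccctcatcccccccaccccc
Gapdh promoter: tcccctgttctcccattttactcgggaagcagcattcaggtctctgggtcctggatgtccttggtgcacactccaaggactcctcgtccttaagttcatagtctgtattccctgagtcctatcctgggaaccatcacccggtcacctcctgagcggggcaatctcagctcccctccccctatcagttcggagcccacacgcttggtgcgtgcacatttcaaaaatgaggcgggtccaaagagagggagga
The *Ldha* window holds ACGTG 5 times when both strands are counted, since each CACGTG reads as ACGTG on either strand. The *Eno1* and *Gapdh* windows shown do not hold ACGTG, but both hold the unmarked GCGTG. The RefSeq start of *Ldha* lies 4329 bases from the first base of the gene in GENCODE M21, and those of *Eno1* and *Gapdh* lie 13 and 694 bases from it. RefSeq gave 4 windows for *Pfkm*, 3 each for *Aldoa* and *Eno1*, and 2 each for *Pkm* and *Ldha*. Only 1 window per member was shown or counted. Over the full RefSeq windows, which run 50 bases past the start, ACGTG on either strand occurred in 5 of the 10 members (*Hk2*, *Pfkm*, *Gapdh*, *Pgk1* and *Ldha*) and in 19.6% of 32851 windows of the same length. CACGTG occurred in 2 members (*Pfkm* and *Ldha*) and 7.15% of windows. GCGTG occurred in 4 members (*Pfkl*, *Gapdh*, *Eno1* and *Ldha*) and 32.4% of windows. The 5 members with ACGTG include the enzyme that was higher in HSD eWAT, *Pfkm*, and *Hk2*, whose groups overlapped. These are matches of letters and not sites of binding.

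In liver, none of the 10 enzymes passed the test between HSD and CON in all 6 libraries, where limma called 0.0% of 10317 genes and 5.74% had an unadjusted p under 0.05. None of the 10 had an unadjusted p under 0.05, and limma voom on recovered fragments also called 0 genes. *Pfkl* lay above CON in every HSD library, at 3.82, 3.15 and 4.54 FPKM against 2.75, 2.89 and 2.41 FPKM (log2 difference 0.44, SE 0.21, adjusted p = 0.764), which was not so without mitochondrially encoded genes. The other 9 overlapped between the diets, while 8.62% of all genes lay above and 3.47% below CON in every HSD library. *Ldha*, at 94.1, 104 and 34.9 FPKM in HSD and 16.2, 68.0 and 21.5 FPKM in CON, had a log2 difference of 1.27 (SE 0.66, adjusted p = 0.764). *Eno1* had 0.69 (SE 0.55) and *Pgk1* 0.38 (SE 0.72).

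CON16L decided several of these values. *Pfkm* was at 62.0 FPKM in CON16L and at 2.77 to 4.73 FPKM in the other 5 liver libraries. *Aldoa* was at 235 FPKM against 23.9 to 37.9 FPKM, *Pkm* at 26.2 FPKM against 0.886 to 2.48 FPKM, and *Hk2* at 5.62 FPKM against 0 to 0.196 FPKM. These levels are 4.54% to 9.96% of the means in CON muscle. *Hk2* was over the filter in liver through CON16L alone. In the other 5 libraries it rested on 0 to 10 fragments, and the 0 of HS2L allows up to 0.0482 FPKM, the level of 3 fragments.

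Without CON16L, where 0.00998% of genes were called, the differences of *Pfkm* (0.14, SE 0.31), *Aldoa* (0.34, SE 0.40) and *Pkm* (0.13, SE 0.35) turned their sign from −1.20, −0.69 and −1.17 over all 6. *Ldha* then had 1.88 (SE 0.57, adjusted p = 0.506), *Pgk1* 1.09 (SE 0.58), *Eno1* 1.03 (SE 0.57) and *Gapdh* 0.39 (SE 0.51). With the study's 4 liver libraries alone, where 0.351% of genes were called, *Ldha* had 2.38 (SE 0.42, adjusted p = 0.057), *Pgk1* 1.59 (SE 0.43, adjusted p = 0.074) and *Eno1* 1.41 (SE 0.50, adjusted p = 0.106). No member was called in any of these fits.

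CON16L apart, *Ldha*, *Pgk1* and *Eno1* were highest in HS2L and HS4L, the liver libraries with the lowest mitochondrial share. That share was 16.3% and 15.4% in HS2L and HS4L, 44.4% in HS5L, 60.8% in CON14L and 37.8% in CON72L. *Ldha* was at 94.1 and 104 FPKM in the first pair, 34.9 FPKM in HS5L, and 16.2 and 21.5 FPKM in CON14L and CON72L. *Pgk1* was at 25.5 and 26.0 FPKM in HS2L and HS4L and at 8.71, 5.43 and 12.3 FPKM in the other 3. When FPKM was rescaled without the mitochondrially encoded genes, over all 6 libraries, the difference was 0.90 for *Ldha*, 0.03 for *Pgk1*, 0.33 for *Eno1* and −0.25 for *Gapdh*. Over the same 6 libraries as deposited, CON16L included, they were 1.27, 0.38, 0.69 and 0.12 in this order.

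*Pklr*, the liver pyruvate kinase, which was singled out after its values were seen, stood at 18.0, 11.5 and 23.8 FPKM in CON liver and at 5.46, 7.74 and 6.36 FPKM in HSD liver. The groups did not overlap, but it did not pass the test (log2 difference −1.33, SE 0.33, adjusted p = 0.764). Without CON16L it was −1.61 (SE 0.35, adjusted p = 0.506). Of the 13 other glycolytic genes over the filter in liver, and of 14 regulators, none was called.

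In muscle, none of the 10 enzymes was called, against 0.323% of 10834 genes (35 genes, of which 24 were lower in HSD). A block for the replicate number gave 54 called genes, and none of the 10. *Hk2* and *Eno1* lay below CON in every HSD library, as did 15.6% of all genes (22.3% lay either all below or all above). *Hk2* stood at 62.4, 56.0 and 50.8 FPKM in CON and at 50.2, 38.8 and 47.1 FPKM in HSD (−0.31, SE 0.14, adjusted p = 0.302). *Eno1*, which is the minor enolase of muscle, stood at 18.5, 18.2 and 21.0 FPKM in CON and at 11.3, 15.1 and 14.1 FPKM in HSD (−0.50, SE 0.14, adjusted p = 0.120, and adjusted p = 0.067 with the block).

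The other 8 enzymes overlapped between the diets in muscle. *Gapdh* stood at 190, 190 and 211 FPKM in CON and at 190, 184 and 215 FPKM in HSD, with a log2 difference of −0.0040 (SE 0.12). *Ldha* had −0.0047 (SE 0.13), *Pgk1* 0.03 (SE 0.13), *Pkm* −0.03 (SE 0.13), *Pfkm* 0.03 (SE 0.15) and *Gpi1* 0.04 (SE 0.12). *Aldoa*, at 3430 to 4186 FPKM in CON and 4000 to 5234 FPKM in HSD, had 0.29 (SE 0.16, adjusted p = 0.397), and *Pfkl* had −0.15 (SE 0.15). The median over the 10 was −0.0043 and over all genes −0.06. The *Aldoa* upstream gene, at 149, 92.0 and 109 FPKM in CON and 108, 42.6 and 66.4 FPKM in HSD, had −0.76 (SE 0.30, adjusted p = 0.256). In the other tissues it rested on 0 to 26 fragments per library, with 0.312 to 0.826 FPKM in CON eWAT, 1.34 to 2.04 FPKM in HSD eWAT and 0 to 2.80 FPKM in liver.

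Of the other glycolytic genes, 11 were over the filter in muscle, and 0 were called. Of the regulators, 16 were over it, and 0 were called, with an unadjusted p under 0.05 for 3 and 6 genes, against 16.3% of all genes in muscle. The difference of the diet effect between liver and muscle was tested in 1 fit of all 18 libraries, in which 0.0612% of 13067 genes were called (0.0383% with a higher and 0.023% with a lower effect in liver). None of the 10 passed. The smallest adjusted p of the 10 was that of *Pfkl*, with a difference of 0.59 (SE 0.20, adjusted p = 0.435). Without CON16L, the 3 largest differences were 1.89 for *Ldha* (adjusted p = 0.155), 1.53 for *Eno1* (adjusted p = 0.199) and 1.06 for *Pgk1* (adjusted p = 0.357).

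The tissues differed far more than the diets. In the 9 CON libraries, 9 of the 10 enzymes differed between muscle and eWAT, where limma called 54.9% of 12637 genes, 7.98% higher and 46.9% lower in muscle. Of these 9, 7 were higher in muscle. *Pfkm* showed the largest step, with 1032 ± 38.9 FPKM in muscle against 9.88 ± 0.503 FPKM in eWAT (SD, n = 3, log2 difference 6.64, SE 0.91). *Aldoa*, at 3807 ± 378 FPKM, was the most abundant member in muscle (log2 difference to eWAT 3.46, SE 0.75). *Gapdh*, *Pgk1*, *Pkm* and *Ldha* were 7.75, 7.01, 8.57 and 3.48 times as high on the same scale. *Pfkl* (−3.02, SE 0.12) and *Eno1* (−2.50, SE 0.38) were lower in muscle. *Hk2* had 1.06 and did not pass over all 9 libraries, which share 1 estimate of the spread, but passed without CON16L (SE 0.13), where 55.6% of genes were called.

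Against liver, 8 of the 10 were higher in muscle, where 50.1% of genes were called (35.1% of all genes higher and 15.0% lower in muscle). *Pkm* had the largest log2 difference, 7.03, or 8.33 without CON16L, where 53.1% of genes were called. *Pfkl* (−0.60, SE 0.12, limma adjusted p = 0.0015) fell short of the log2 difference of 1 alone. *Eno1* (0.09, SE 0.38, adjusted p = 0.834) did not pass. *Pfkl* passed as lower in muscle under median-ratio scaling (−1.17), quantile normalization (−1.01) and without mitochondrially encoded genes (−1.14), and the direction of *Eno1* turned under the same 3 settings (−0.53, −0.28 and −0.49). In eWAT against liver, 7 of the 10 were higher, where 69.4% of genes were called (62.1% higher and 7.26% lower in eWAT), and 9 were without CON16L, where 71.2% were called. *Gapdh* passed in neither fit, at 24.2 to 25.9 FPKM in eWAT and 15.2 to 45.9 FPKM in liver (−0.31, SE 0.38, adjusted p = 0.457).

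Scale matters for the contrasts with liver, because the median of all genes was itself 1.36 for eWAT minus liver, 0.52 for muscle minus liver and −0.93 for muscle minus eWAT. Relative to that median, *Gapdh* in eWAT lay 1.68 below its liver level on the log2 scale, *Gpi1* 0.42 below and *Pfkm* 1.28 below, and *Gpi1* and *Pfkm* turned their sign under median-ratio scaling (−0.69 and −1.46). *Hk2* (3.07), *Pkm* (2.56), *Ldha* (1.72), *Aldoa* (1.24), *Eno1* (1.23), *Pfkl* (1.06) and *Pgk1* (0.71) lay above it, though under median-ratio scaling *Pfkl*, *Aldoa*, *Pgk1* and *Eno1* (0.90, 0.95, 0.45 and 0.96) no longer passed. *Pfkl* and *Eno1* then fell short of the log2 difference of 1 alone (limma adjusted p = 0.0002 and 0.036). *Aldoa* and *Pgk1* had an adjusted p of 0.258 and 0.455. In muscle the 8 enzymes that were called lay 2.07 to 6.50 above the median of all genes. For *Gapdh*, muscle was above the other tissues. Liver and eWAT did not differ beyond their spread in FPKM as deposited, but *Gapdh* passed as lower in eWAT under median-ratio scaling (−1.94), quantile normalization (−1.21) and without mitochondrially encoded genes (−1.06).

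**Figure D4:**
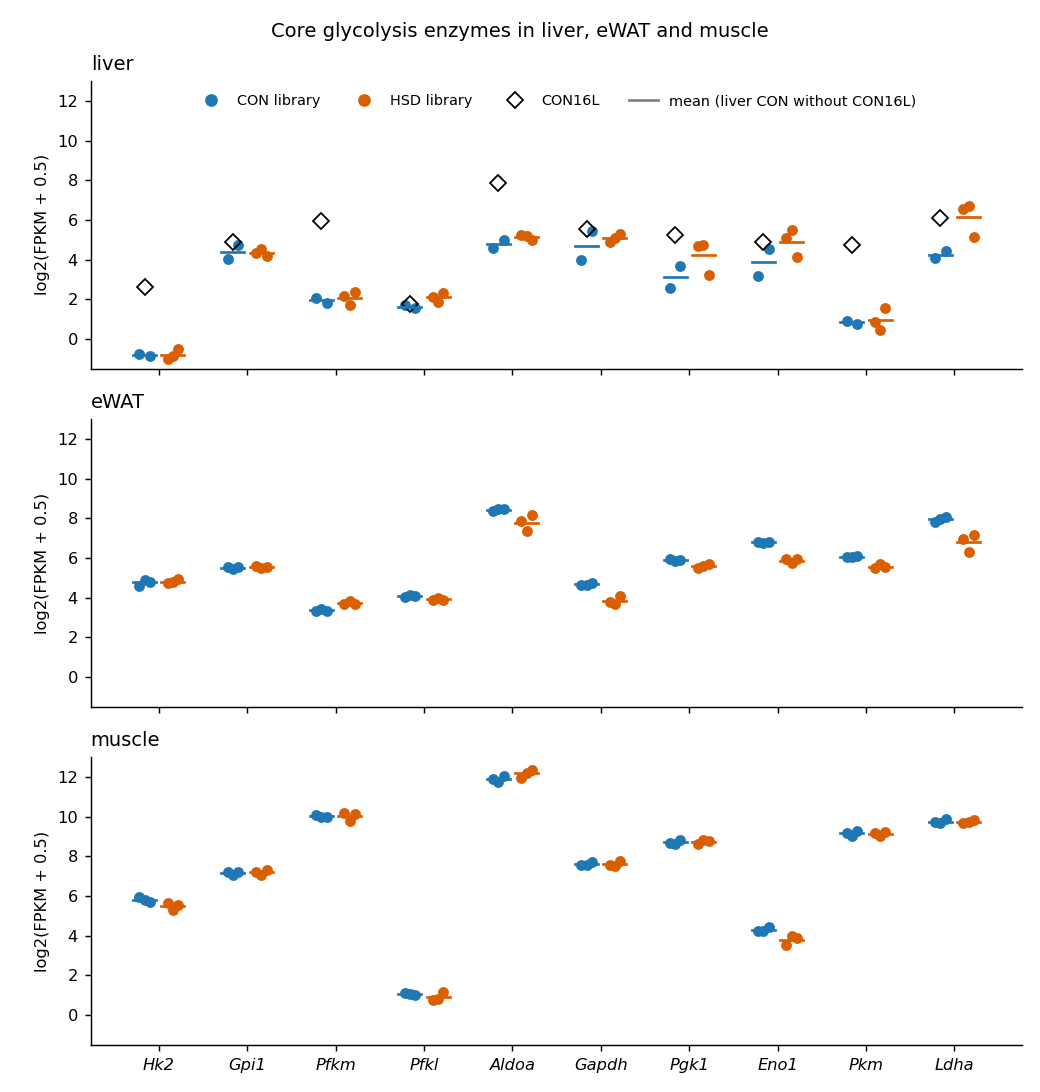
log2(FPKM + 0.5) of the 10 enzymes in each library of liver, eWAT and muscle, with CON in blue, HSD in orange, lines at the group means (liver CON without CON16L) and the library CON16L as an open diamond. CON16L lies far above the other liver libraries for *Hk2*, *Pfkm*, *Aldoa* and *Pkm*, and muscle is highest for all but *Pfkl* and *Eno1*.

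The members carried their step to very different extents in the 3 tissues. In CON muscle, *Pfkm* made up 99.8% of the summed FPKM of the phosphofructokinase genes and *Pkm* at least 99.995% of pyruvate kinase. *Eno1*, by contrast, made up 0.54% to 0.60% of the enolases there, where *Eno3*, the muscle enolase, was at a mean of 3397 FPKM. *Ldha* made up 83.6% to 89.4% of lactate dehydrogenase.

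In the 5 liver libraries other than CON16L, *Pklr* made up 72.0% to 95.2% and *Pkm* 4.80% to 28.0%. *Pfkl* and *Pfkm* were near parity, at 41.3% to 52.2% and 46.0% to 55.4%, and *Ldha* made up 90.2% to 99.5%. In CON16L the shares lay between those of liver and muscle for phosphofructokinase, pyruvate kinase and enolase, with *Pfkm* at 95.1%, *Pkm* at 69.5% and *Eno3* at 83.8%. *Ldhb*, the lactate dehydrogenase subunit of heart and oxidative muscle, made up 63.3% in CON16L, above both the 0.53% to 9.79% of the other 5 liver libraries and the 10.6% to 16.4% of CON muscle.

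In CON eWAT, *Pfkl* made up 46.3% to 49.5% and *Pfkm* 27.4% to 29.2% of their step. *Pkm* (97.1% to 98.7%), *Eno1* (87.2% to 88.7%) and *Ldha* (81.0% to 84.7%) each led theirs. In HSD eWAT, *Eno1* made up 71.4% to 75.5%, *Pfkm* 35.8% to 42.1% and *Ldha* 37.7% to 73.0%, each separate from CON. *Ldhb* made up 15.3% to 18.8% of its step in CON eWAT and 19.0% to 54.8% in HSD eWAT. The sperm isoform *Ldhc* made up 0 to 1.66% in CON and 0.94% to 19.5% in HSD. The part of germ cells and epididymal epithelium in these shares was not tested. *Eno3* made up 6.16% to 7.73% in CON and 18.5% to 23.8% in HSD, and its FPKM stood at 7.71, 9.68 and 7.95 in CON and 16.6, 17.6 and 15.0 in HSD. The 10 skeletal muscle markers summed to 36.2 to 41.6 FPKM in CON eWAT and to 53.9 to 63.3 FPKM in HSD eWAT, and their part in *Eno3* and *Pfkm* was not tested.

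**Figure D5:**
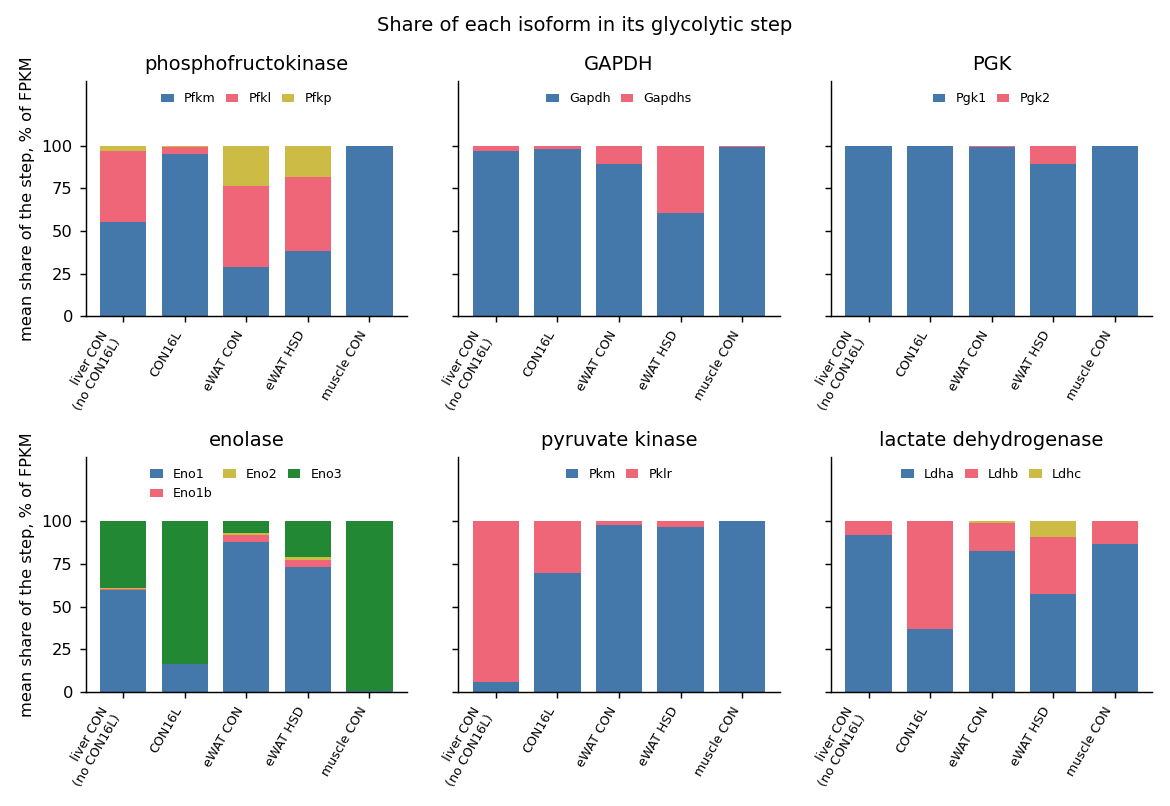
Mean share of each isoform, in percent of the summed FPKM of its step, for 6 steps in liver CON without CON16L (2 libraries), in CON16L, in eWAT CON, in eWAT HSD and in muscle CON (3 libraries each). *Pklr* has the largest share of its step in liver, *Eno1* and *Pkm* in eWAT, and *Pfkm*, *Eno3* and *Pkm* in muscle, while CON16L lies between liver and muscle for phosphofructokinase, enolase and pyruvate kinase and has the largest share of *Ldhb*.

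The genes whose levels were most like *Gapdh* were sought among 6419 genes with a mean of at least 5 FPKM over the 18 libraries, by Pearson's r of log2(FPKM + 0.5) after the mean of each tissue was subtracted. They were *Dpt* (r = 0.892), *Msrb2* (0.887), *Mtap* (0.882), *S100a6* (0.878) and *Cavin3* (0.868). The closest of the other members was *Eno1* (0.710), followed by *Aldoa* (0.583) and *Ldha* (0.575), and the farthest was *Pfkm* (0.238). The diet means were not subtracted, so the eWAT difference with which *Gapdh* was chosen enters r, and nothing is read from the order. *Dpt*, which is also among the 6 fibroblast markers, was at 166 to 200 FPKM in CON eWAT and at 49.0 to 105 FPKM in HSD eWAT. The 18 points share libraries and groups, so these values describe likeness and carry no test.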

How the data were processed

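Liver, eWAT and muscle RNA of 8 mice was sequenced, with 3 libraries per diet and tissue. The deposited values are FPKM, which the authors computed with cuffdiff from hisat2 alignments to mm10 after adapter removal by cutadapt, while their processing notes also list HTSeq 0.9.1 and mm9. Depth was 7628071 to 16637489 fragments, recovered with GENCODE M21 exon lengths, which gave whole fragments (within 0.05) for 18346 of 18822 genes and all 11 entries described. The limit given for a count of 0 covers counting error only.

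Groups came from the labels. Genes with a mean of at least 0.5 FPKM were fitted as log2(FPKM + 0.5) with limma 3.58.1 (empirical Bayes with a trend, R 4.3.3), 2-sided, with Benjamini-Hochberg adjustment over all genes tested, and called at an adjusted p under 0.05 and a log2 difference of at least 1. The diets were compared within each tissue, the tissues in the 9 CON libraries, and the diet effects of liver and muscle in 1 fit of 18 libraries. The fits across tissues took the libraries of the same mouse as independent, and the mouse as a random block was run as an alternative. The diet comparison in eWAT is a description for the members, because they were chosen on it. Members and lists were chosen with earlier results of these data known. Named genes are all members, the most extreme of the other lists in eWAT (3 enzymes and 2 regulators each way) and the 5 genes most like *Gapdh*. Results for a few genes of these lists are not reported here. Fits were tested on simulated data. Same-numbered muscle samples deviated together (r = 0.383, 0.177 and 0.184 for replicates 1, 2 and 3), so the replicate number was also used as a block. In the same order r was −0.473, 0.396 and −0.213 in liver and −0.197, 0.061 and 0.414 in eWAT. The labels pair no CON mouse with an HSD mouse, so the block rests on the numbering alone. Alternatives covered pseudocount, filter, scaling, mitochondrial genes, block and left-out libraries. The 4 added after seeing the data were limma voom on recovered fragments, the 2 joint settings without CON16L and the diet difference between tissues without CON16L.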

Additional observations from a re-analysis of the deposited data

Results flagged for a closer look

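*Pfkl* lay on opposite sides of CON in liver and eWAT. All 3 HSD liver libraries (3.15 to 4.54 FPKM) lay above the CON liver libraries (2.41 to 2.89 FPKM), with a log2 difference of 0.44 that did not pass the test (adjusted p = 0.764, limma). It was −0.0086 without CON16L and mitochondrially encoded genes, and without those genes alone 0 of the 10 enzymes were higher in every HSD liver library. All 3 HSD eWAT libraries (14.4 to 15.3 FPKM) lay below the CON eWAT libraries (16.2 to 17.2 FPKM), with a log2 difference of −0.17. The difference between the tissues was not tested.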

How the results depend on the processing

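No member was called between diets in liver or muscle under any alternative run. In eWAT, where the members are described only, 7 of 10 were lower and 1 higher in every HSD library as deposited, under median-ratio scaling and without mitochondrially encoded genes; quantile normalization was not counted. Among all genes, liver calls went from 0 to 35 with the study libraries alone, 41 with all tissues in 1 fit, and 1 without CON16L together with either mitochondrially encoded genes left out or median-ratio scaling (0 to 1 leaving out each library). Calls in eWAT went from 0 to 161 in 1 fit (0 to 160 leaving out each library, with 160 without HS3W). Calls in muscle went from 35 to 54 with the replicate block, 7 without the filter, 5 in 1 fit and 66 with voom (10 to 61 leaving out each library). The block changed no call of a member. Without mitochondrially encoded genes, 1 member was lower and 0 were higher in every liver HSD library, and with median-ratio scaling 1 was lower and 1 higher in muscle. With median-ratio scaling, 4 members were called between eWAT and liver (7 to 9 leaving out each library). *Hk2*, *Pkm* and *Ldha* were higher in eWAT, and *Gapdh*, not called as deposited, was lower (−1.94).

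Signs turned in liver for *Gapdh* (−0.17 with quantile normalization, −0.25 without mitochondrially encoded genes and −0.17 also without CON16L), *Gpi1* and *Aldoa* (0.021 and 0.42 with study libraries), *Pfkl* (−0.0086 without CON16L and mitochondrially encoded genes) and *Aldoa* (0.16 without CON16L under median-ratio scaling). They turned in muscle for *Gapdh*, *Pkm* and *Ldha* (0.084, 0.058 and 0.083 with median-ratio scaling) and for *Gpi1*, *Pfkm*, *Pgk1* and *Ldha* (−0.024, −0.062, −0.057 and 0.063 with quantile normalization). Between eWAT and liver they turned for *Gpi1* (−0.69) and *Pfkm* (−1.46) with median-ratio scaling, and for *Pfkm* with quantile normalization (−1.05) and without mitochondrially encoded genes (−0.62). Between muscle and liver *Eno1* turned (−0.53, −0.28 and −0.49 in the same order). Leaving out each library gave liver ranges of −1.93 to 0.14 for *Pfkm*, −1.29 to 0.34 for *Aldoa*, −0.39 to 0.39 for *Gapdh*, −0.25 to 1.09 for *Pgk1* and −1.86 to 0.13 for *Pkm*. The muscle ranges were −0.023 to 0.096 for *Gpi1*, −0.049 to 0.16 for *Pfkm*, −0.071 to 0.046 for *Gapdh*, −0.017 to 0.093 for *Pgk1*, −0.093 to 0.025 for *Pkm* and −0.050 to 0.057 for *Ldha*. *Pfkm* ranged from −0.64 to 1.42 between eWAT and liver, and *Eno1* from −0.41 to 0.43 between muscle and liver. The cause was not tested.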
